A study of Mus musculus with 13 samples.

Results

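Tumour necrosis factor, the interleukin 1 family cytokines with their natural antagonist, interleukin 6, a pair of inducible inflammatory enzymes, the itaconate enzyme Acod1 and the formyl peptide receptor Fpr1 were followed as 10 genes through 13 mouse RNA sequencing libraries. The genes are Tnf, Il1a, Il1b, Il6, Il18, Il1rn, Nos2, Ptgs2, Acod1 and Fpr1. They were taken by symbol, 10 of 23238 symbols in the tissue table and 10 of 24542 in the culture table, and each had counts in a library of both tables. Acod1 and Fpr1 were chosen by their measured values, as lower in both glia libraries that received the delivered genes, so those values are given as a description. The tissue was hippocampus of the 3xTg line, in which the neuronal Thy1 promoter drives human APP and tau transgenes with disease mutations, on a mutant presenilin background. Of these libraries, 3 had control AAV9, an adeno-associated virus, and 4 had AAV9 for the transcription factors Nurr1 (Nr4a2) and Foxa2, called N+F here, and all 7 are labelled as treated with amyloid beta. The 6 culture libraries were made from glia of ICR pups at postnatal day 1, and each group was 1 library. For hippocampal as for cortical glia there was control lentivirus alone (called untreated), control lentivirus with amyloid beta (the amyloid beta control), and N+F lentivirus with amyloid beta. The age and sex of the mice are not given in the labels.

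These genes stand at several steps of the innate immune response. Tnf, Il1a, Il1b and Il6 are made by microglia and macrophages after danger or pathogen signals reach the transcription factor NF-kB, and the inflammasome then cuts the precursors of Il1b and Il18 into active cytokines. Il1rn blocks the interleukin 1 receptor without signalling. Nos2 makes nitric oxide from arginine and Ptgs2, cyclooxygenase 2, starts prostaglandin synthesis; Acod1 makes itaconate from a citric acid cycle intermediate, and Fpr1 senses formylated peptides from bacteria and mitochondria. Ptgs2 is also made by forebrain neurons and Il18 is present in resting brain, so neither marks an immune cell by itself.

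Depth ran from 10194437 to 25139406 counts in tissue and from 52189025 to 78273121 in culture. Levels are CPM, counts relative to the depth of each library, with library totals adjusted by the trimmed mean of M values (TMM) where tissue genes were tested and taken as they are elsewhere. In tissue Nr4a2 was at 22.1 to 34.2 CPM with N+F and 19.4 to 45.1 CPM with control AAV9, and Foxa2 was at 0.0883 to 2.55 against 0.0795 to 0.199 CPM, so neither delivered gene separated the groups. In culture Nr4a2 was at 488 CPM in the hippocampal N+F library against 3.35 in its amyloid beta control, and at 36.9 against 5.14 CPM in cortical glia, and Foxa2 was at 140.3 and 13.5 CPM with N+F against 0 counts in both amyloid beta controls. Both untreated culture libraries stood apart from the other 4: the summed level of a list of neuron markers was 9220 and 10271 CPM in them and 369 to 400 CPM in the rest, and the oligodendrocyte markers were at 9704 and 8138 against 181 to 483 CPM. The cortical N+F library stood apart through its mural and fibroblast markers, at 16460 CPM against 1707 CPM in its amyloid beta control, while the hippocampal N+F library held 4318 against 3066 CPM. Astrocyte markers were high in all 6, at 5984 to 9767 CPM. In such bulk libraries, fewer cells of a type and less RNA per cell cannot be told apart.

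The DNA just upstream of 5 of the genes is shown because these genes differed in their culture response: Tnf, Acod1 and Fpr1 were lower in both N+F libraries, while Il6 and Ptgs2 were higher in the cortical N+F library. Each line gives the 250 bases before the annotated start, 5′ to 3′ on the gene's own strand, from RefSeq on the mouse build GRCm38.p6, at chr17:35202008-35202257 (minus strand) for Tnf, chr14:103046762-103047011 (plus) for Acod1, chr17:17883940-17884189 (minus) for Fpr1, chr5:30012864-30013113 (plus) for Il6 and chr1:150099781-150100030 (plus) for Ptgs2. Capitals mark matches to the motifs searched: the TATA box TATAAA, the AP-1 site TGANTCA, the C/EBP site TTGCNNAA, the forkhead site TGTTTAC of the Foxa family, the NBRE AAAGGTCA bound by Nurr1, and the kappaB consensus of NF-kB.
Tnf: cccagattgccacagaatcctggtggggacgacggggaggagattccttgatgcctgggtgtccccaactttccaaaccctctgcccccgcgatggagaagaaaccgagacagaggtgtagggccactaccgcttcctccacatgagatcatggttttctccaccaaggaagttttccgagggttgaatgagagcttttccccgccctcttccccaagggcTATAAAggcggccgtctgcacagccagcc
Acod1: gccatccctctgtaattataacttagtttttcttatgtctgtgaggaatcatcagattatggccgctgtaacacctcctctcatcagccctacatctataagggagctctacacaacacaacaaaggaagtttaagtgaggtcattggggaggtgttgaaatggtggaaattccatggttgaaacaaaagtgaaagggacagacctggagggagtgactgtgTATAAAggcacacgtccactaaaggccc
Fpr1: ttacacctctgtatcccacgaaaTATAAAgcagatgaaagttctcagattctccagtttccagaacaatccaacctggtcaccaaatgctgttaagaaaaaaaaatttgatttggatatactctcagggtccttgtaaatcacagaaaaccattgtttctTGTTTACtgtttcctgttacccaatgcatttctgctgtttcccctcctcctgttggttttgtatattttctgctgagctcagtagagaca
Il6: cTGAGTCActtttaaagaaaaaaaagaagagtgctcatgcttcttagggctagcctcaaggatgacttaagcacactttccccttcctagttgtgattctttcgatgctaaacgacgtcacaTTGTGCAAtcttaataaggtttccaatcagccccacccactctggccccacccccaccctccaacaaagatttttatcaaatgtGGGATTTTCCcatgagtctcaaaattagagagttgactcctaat
Ptgs2: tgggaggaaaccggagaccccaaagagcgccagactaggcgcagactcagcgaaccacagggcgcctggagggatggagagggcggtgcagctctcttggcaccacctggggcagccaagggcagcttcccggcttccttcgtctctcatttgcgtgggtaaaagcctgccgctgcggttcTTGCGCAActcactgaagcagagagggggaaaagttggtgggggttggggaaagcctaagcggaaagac

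The search covered both strands from 250 bases before to 50 bases after the start, in 11 windows for 9 of the 10 genes, all but Nos2. A kappaB match lay 44 to 35 bases before the Il6 start and in no other of these genes' windows, against 8.46% of all 32851 windows. Tnf and Acod1 each had a TATA box, 29 to 24 and 28 to 23 bases before the start. The same letters, counted on either strand and at any place, were in 7 of the 11 windows, against 13.6% of all windows. These windows belong to 7 of the 9 genes. For Il1a and Il1b the letters also lay close before the start. For Il18 and Fpr1 they lay farther upstream, and for Il1rn after the start, so not all 7 are placed as in Tnf and Acod1. The forkhead motif was found 90 to 84 bases before the Fpr1 start and for none of the other 8 genes, against 3.65% of all windows. The NBRE letters were in 0 of the 11 windows, against 1.51% of all. AP-1 letters were found for Il1a, Il6 and Il1rn (7.81% of all windows) and C/EBP letters for Il6 and Ptgs2 (10.8%). A match describes the sequence and does not show that a factor binds there, and absence says only that those letters are not in that window.

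In 3xTg hippocampus, the question was whether N+F AAV9 changed these genes, and none passed the test. By edgeR's quasi-likelihood test with Benjamini-Hochberg adjustment over 15523 genes, 5 of the 10 genes had enough counts to be tested and 0 of those 5 passed an adjusted p of 0.05, where 0.110% of all tested genes did. At an unadjusted p of 0.05, 0 of the 5 passed against 8.46% of all genes, and the groups of libraries overlapped for all 5, whereas 8.11% of all genes did not overlap. Of the 5, 4 had a higher fitted level with N+F and 1 a lower one, with a median log2 fold change of 0.15 beside -0.00 for all genes. DESeq2 gave an adjusted p for 3 of the 5, Il18, Il1rn and Ptgs2, and called none of them, while Il1b and Fpr1 received none.

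Among the cytokines, Il18 was the most abundant in tissue. It was at 33.9, 29.7 and 26.2 TMM-scaled CPM in the 3 control libraries and 35.3, 32.7, 31.5 and 22.7 in the 4 N+F libraries. The lowest and the highest value were both N+F libraries, so the N+F range contained the control range. Its means were 29.9 ± 3.89 (SD, n = 3) and 30.6 ± 5.47 (SD, n = 4), with an edgeR log2 fold change of 0.02 ± 0.17 (SE), a 95% interval of -0.34 to 0.39 and an adjusted p of 0.983.

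Il1b, the main secreted interleukin 1 of activated microglia, was low in every tissue library. Its TMM-scaled CPM were 0.215, 0.919 and 0.948 in the controls and 0.904, 0.358, 1.19 and 0.480 with N+F. The first control library was the lowest of the 7 and the third N+F library the highest. The edgeR log2 fold change was 0.15 ± 0.65 (SE) with an interval of -1.26 to 1.56 and an adjusted p of 0.973, so a change of 2-fold in either direction lay inside the interval.

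Il1a, which acts also as an alarm signal released from damaged cells, did not reach the count filter. It had 32, 4 and 10 counts in the control libraries and 1, 2, 11 and 8 with N+F. The ranges overlapped, at 0.800 ± 0.471 CPM of the library total (SD, n = 3) against 0.476 ± 0.411 (SD, n = 4), and the two-sided exact permutation p was 0.4, where the smallest p this design allows is 0.0571. Tnf and Il6 were close to absent at this depth. Tnf had 6, 0 and 0 counts in the controls and 2, 0, 0 and 0 with N+F, and Il6 had 3 counts in control library 1 and 0 in the other 6 libraries. A count of 0 allows up to 0.119 to 0.294 CPM in these libraries, and each of the 2 genes had an exact permutation p of 0.857, so a difference was not detectable at this depth.

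Il1rn, the receptor antagonist, was the other abundant transcript of the group in tissue. The controls held 17.0, 25.5 and 23.1 TMM-scaled CPM and the N+F libraries 24.3, 25.0, 26.6 and 28.4. Control library 2 lay inside the N+F range and the other 2 controls below it. With means of 21.9 ± 4.37 (SD, n = 3) and 26.1 ± 1.83 (SD, n = 4), its edgeR log2 fold change was 0.26 ± 0.16 (SE; interval -0.09 to 0.61), with an unadjusted p of 0.129 and an adjusted p of 0.731, and 0.129 was the smallest unadjusted p among the 5 tested genes. In CPM, Il1rn exceeded the sum of Il1a and Il1b in all 7 tissue libraries, by 12.5-, 20.3- and 13.3-fold in the controls and by 24.2-, 46.5-, 11.7- and 25.4-fold with N+F. That ratio overlapped between the groups. Per kilobase of exon the gap was smaller because the annotated Il1rn exons span 5535 bases, against 1974 for Il1a and 1907 for Il1b.

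The enzymes were low in tissue with the exception of Ptgs2. Ptgs2 was at 4.26, 2.51 and 3.32 TMM-scaled CPM in the controls and 2.71, 2.77, 3.85 and 2.80 with N+F. All 4 N+F values lay within the control range, and edgeR gave a log2 fold change of -0.17 ± 0.31 (SE; interval -0.83 to 0.50; adjusted p = 0.937). Nos2 had 0, 1 and 0 counts in the controls and 1, 2, 0 and 5 with N+F, and the exact permutation p was 0.229. Acod1, listed in the tissue table under its older symbol Irg1, had 4, 3 and 1 counts in the controls and 0, 5, 3 and 7 with N+F, with an exact permutation p of 0.343. The single-digit counts of both enzymes overlapped between the groups.

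Fpr1, the receptor, varied most among the tested genes. Its TMM-scaled CPM were 0.752, 0.167 and 0.790 in the controls and 2.21, 1.25, 0.198 and 0.320 with N+F. N+F libraries 1 and 2 were above all controls and N+F libraries 3 and 4 below 2 of the 3 controls. The edgeR log2 fold change of 0.72 ± 0.77 (SE) had an interval of -0.95 to 2.40 and an adjusted p of 0.867. Markers of cells that make Fpr1 are given beside it: the summed level of the monocyte and neutrophil list was 99.3 to 153.6 CPM with N+F and 126.4 to 151.3 CPM in the controls. Cxcr2 alone gave 68.3 to 109.9 CPM of each sum and the list's median gene was at 0.318 to 2.07 CPM, so the sum says little of the level of those cells. Microglia markers were at 397 to 555 CPM with N+F and 560 to 654 CPM in the controls. In CPM of the library total, the microglia list was thus lower in all 4 N+F libraries than in the 3 controls. The nearest libraries were at 555 and 560 CPM, and with the TMM scaling used for the tested genes the groups overlap. The part of the microglia list in the values of these 10 genes was not tested.

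**Figure D1:**
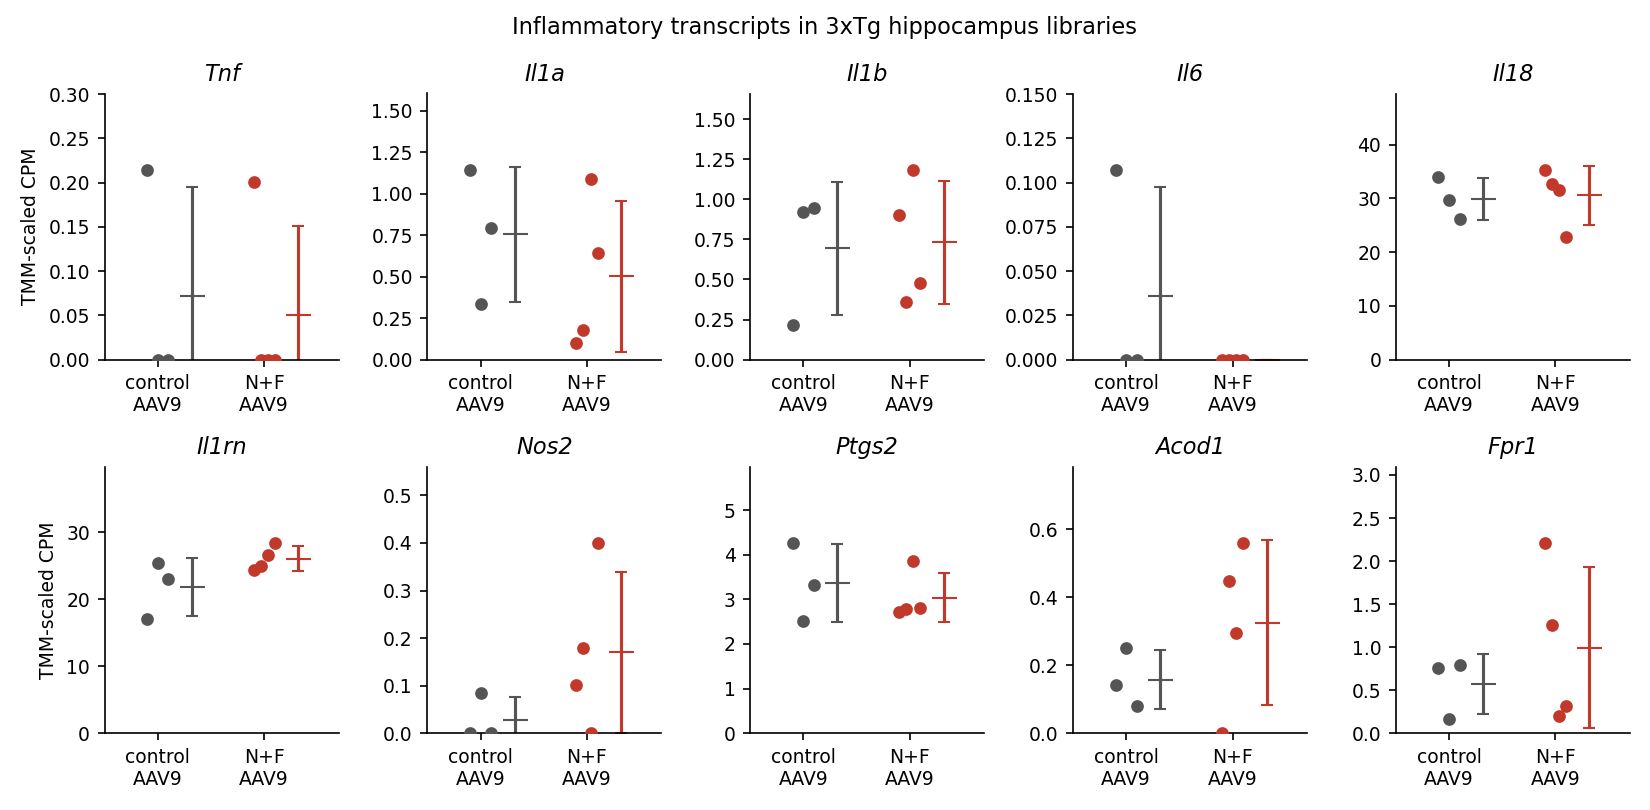
TMM-scaled CPM of the 10 genes in 3xTg hippocampus, each panel with its own linear axis from 0; points are libraries (3 with control AAV9 in grey, 4 with N+F AAV9 in red) and the bars beside them the mean and SD, cut off at 0. Il18 and Il1rn are the highest, Tnf and Il6 are at 0 in most libraries, and no gene separates the groups.

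Divided by exon length, the order of levels in tissue was Il18 at 29.4 CPM per kilobase (22.5 to 36.6 over the 7 libraries), then Il1rn at 4.36 (3.41 to 5.23), and these ranges did not meet each other or those below. Ptgs2 at 0.695 (0.542 to 1.03), Fpr1 at 0.617 (0.125 to 1.63), Il1b at 0.367 (0.125 to 0.556) and Il1a at 0.311 (0.0497 to 0.645) followed with overlapping ranges. Acod1 at 0.0965, Tnf at 0.0379, Nos2 at 0.0249 and Il6 at 0.00702 CPM per kilobase were each at 0 in at least 1 library. Tnf, Nos2 and Il6, known from acute inflammation, thus lay at the bottom of the order, and Il18 and Il1rn at the top.

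In cultured glia the labels set up 2 questions: what amyloid beta did to control cells, and what N+F did in cells given amyloid beta. Both use the same amyloid beta control libraries, 1 per region, so the comparisons are not independent and their values are given side by side. With 1 library per group, no group has a spread of its own, and the folds within a region are descriptions. The one test over both regions was an additive edgeR fit with region and condition as terms and 2 residual degrees of freedom, whose error term is the disagreement between the regions and not a replicate error. Intervals below cover counting error only, and a gene was counted when it differed at least 2-fold on the log2(CPM + 1) scale and reached 1 CPM in a library of the pair.

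Tnf was nearly absent without amyloid beta, present with it, and lower with N+F in both regions. In hippocampal glia it was at 0.0888 CPM untreated, 1.93 in the amyloid beta control and 0.397 with N+F. In cortical glia the same order held, at 0.0575, 3.11 and 0.409 CPM. The N+F libraries had 4.86-fold less Tnf (95% counting interval 3.14 to 7.83) and 7.61-fold less (5.21 to 11.4) than their controls. Against untreated glia the amyloid beta controls had 21.7-fold more (9.73 to 60.1), and 54.1-fold more (18.2 to 265) in cortical glia, where the untreated value rests on 3 counts.

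The interleukin 1 cytokines did not share this pattern. Il1a was at 0.843, 0.950 and 0.281 CPM in untreated, amyloid beta control and N+F hippocampal glia, and 3.38-fold lower with N+F (interval 1.97 to 6.12). In cortical glia it was at 1.19, 2.73 and 4.82 CPM, 1.76-fold higher with N+F (1.46 to 2.13). The direction thus differed between the regions, with intervals that did not meet. Il1b stayed under 0.6 CPM in all 6 libraries, at 0.192, 0.0937 and 0.0331 CPM in hippocampal and 0.594, 0.395 and 0.319 CPM in cortical glia. Its N+F values rested on 2 and 25 counts, and the counting intervals of both N+F ratios included 1. Il1a and Il1b each overlap an annotated gene on the opposite strand, Gm14023 and Il1bos, and without stranded counting their reads cannot be told apart.

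Il18 was again the most evenly expressed cytokine. Hippocampal glia had 19.9, 15.8 and 13.2 CPM and cortical glia 23.1, 20.6 and 9.61 CPM in the same order. The N+F library was lowest in each region, 1.20-fold below its control in hippocampal glia (interval 1.10 to 1.32) and 2.15-fold below in cortical glia (1.96 to 2.35), where TMM scaling takes the log2 ratio from -1.03 to -0.87, short of 2-fold.

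Il6 was highest with N+F in both regions. It was at 0.0592, 1.00 and 1.34 CPM in hippocampal glia, where the N+F ratio of 1.33 had an interval of 0.963 to 1.85. Cortical glia had 0, 0.296 and 3.30 CPM, an 11.1-fold higher value with N+F (6.90 to 19.1). The gene has 2 lines in the culture table, with 4 and 14 counts in the cortical control and 232 and 26 with N+F, so the size of this ratio differs by line. Amyloid beta controls had 17.0-fold more Il6 than untreated hippocampal glia (6.35 to 63.9) and at least 5.16-fold more in cortical glia, where the untreated library had 0 counts against a floor of 3.

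Il1rn had 0 counts in both untreated libraries. Amyloid beta controls held 0.642 CPM in hippocampal and 0.543 CPM in cortical glia, at least 14.5-fold and 9.45-fold higher against a floor of 3 counts. With N+F the hippocampal value was 0.628 CPM, a ratio of 0.978 (interval 0.622 to 1.53), whereas the cortical value was 5.46 CPM, 10.04-fold above its control (7.04 to 14.8). Its 3 lines did not move alike: in hippocampal glia line 3 had 48 counts in the control and 7 with N+F, while line 1 had 0 and 31. The lines carry no transcript names. In CPM, Il1rn was below the sum of Il1a and Il1b in both amyloid beta controls, at ratios of 0.615 and 0.174 in hippocampal and cortical glia. With N+F it was above that sum, at 2 and 1.06, in contrast to the tissue ratios of 11.7 to 46.5. The hippocampal N+F ratio rests on 38 counts of Il1rn, 17 of Il1a and 2 of Il1b. Per kilobase of all annotated exons of each gene, Il1rn with N+F was below Il1a alone in both regions. It was at 0.114 against 0.142 CPM per kilobase in hippocampal glia and at 0.986 against 2.44 in cortical glia. In CPM the order was the reverse, at 0.628 against 0.281 and at 5.46 against 4.82, so it rests on the length used.

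Nos2 was the one gene of the 10 that was at least 2-fold higher with N+F in both regions. It was at 0.666, 6.52 and 17.9 CPM in hippocampal glia and at 0.786, 1.68 and 19.2 CPM in cortical glia. The N+F libraries ended at similar levels from controls that differed, which gave ratios of 2.75 (interval 2.47 to 3.06) and 11.4 (9.34 to 14.1). Ptgs2 followed another order, with 27.6, 17.2 and 21.4 CPM in hippocampal glia and 14.6, 7.25 and 206 CPM in cortical glia. The cortical N+F library alone was high, 28.4-fold above its control (25.9 to 31.3), against 1.24-fold (1.15 to 1.35) in hippocampal glia. It was the amyloid beta controls that had the lowest Ptgs2 in each region, 1.61-fold and 2.01-fold below the untreated libraries.

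Acod1 had 0 counts in both untreated libraries, 4.55 CPM in the hippocampal and 9.26 CPM in the cortical amyloid beta control, and 1.42 and 0.562 CPM with N+F. The amyloid beta controls were at least 103-fold and 161-fold above the floor of 3 counts. N+F values were 3.20-fold (2.52 to 4.10) and 16.5-fold (12.1 to 22.9) below their controls. Fpr1 had the same order in both regions, at 0.104, 3.13 and 0.976 CPM in hippocampal glia and at 0, 5.95 and 2.15 CPM in cortical glia, 3.21-fold (2.40 to 4.35) and 2.77-fold (2.30 to 3.35) below the controls with N+F. These N+F values are what the 2 genes were chosen for. The choice also bears on their amyloid beta comparison, because a high value in the shared control raises one and lowers the other.

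**Figure D2:**
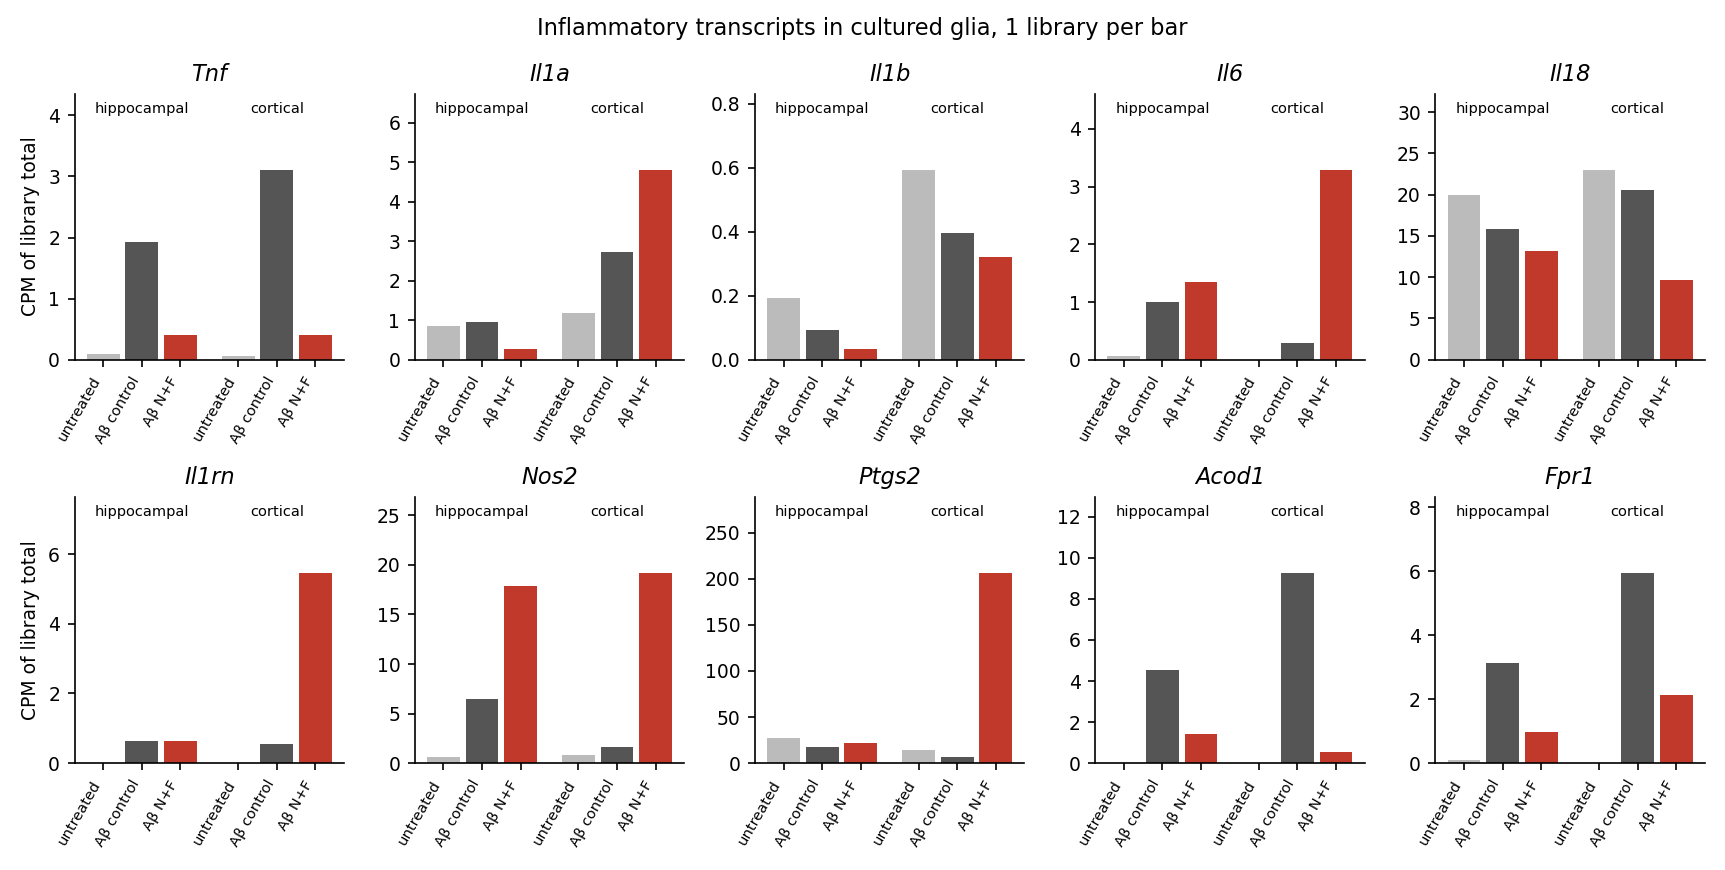
CPM of the library total for the 10 genes in 6 culture libraries (1 library per bar, no replicates), hippocampal glia on the left and cortical glia on the right of each panel; each linear axis starts at 0. Tnf, Acod1 and Fpr1 peak in the amyloid beta controls, Nos2 is highest in both N+F libraries, and Ptgs2 reaches 206 CPM in the cortical N+F library alone.

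Counted by the rule, 7 of the 10 genes reached 1 CPM in both regions for the N+F comparison. Tnf, Acod1 and Fpr1 were lower in both, 3 of 7, where 0.119% of all genes were, and Nos2 was higher in both, 1 of 7 against 2.07%. These shares come from the comparison that chose Acod1 and Fpr1, so nothing is read from them. The additive edgeR fit called 0 of the 10 genes for N+F and 0% of all 16762 genes, with 1156 of all genes at an unadjusted p below 0.05. In hippocampal glia alone, without the cortical libraries, the same 3 of 7 genes were lower (0.767% of all genes) and 1 was higher (5.60%). In cortical glia 4 of 9 were lower, Il18 being the fourth, against 15.1% of all genes, and 4 were higher, namely Il6, Il1rn, Nos2 and Ptgs2, against 12.9%. The members' median log2 ratio was -0.25 in hippocampal glia and 0.64 in cortical glia, beside 0.12 and -0.16 for all genes reaching 1 CPM. TMM scaling shifts the median of all genes by -0.12 in hippocampal and 0.16 in cortical glia, and it changed the direction of none of the 10 genes in either region.

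For amyloid beta against untreated glia, Tnf, Acod1 and Fpr1 were higher in both regions, 3 of the 6 genes that reached 1 CPM in both, against 16.6% of all genes. None of the 6 was lower in both, against 21.5%. Nos2 was 9.79-fold higher in hippocampal glia (7.20 to 13.6) and 2.14-fold higher in cortical glia (1.47 to 3.15), the latter short of 2-fold once the pseudocount is added. In the additive edgeR fit 4 of the 10 genes were higher with amyloid beta, against 15.9% of all 16762 genes: Acod1 (adjusted p = 0.0105), Tnf (0.0159), Fpr1 (0.0350) and Il1rn (0.0473). None was lower, against 17.2%. Because Acod1 and Fpr1 were chosen on a comparison that shares these control libraries, their values here add no independent evidence. The members' median log2 ratio was 1.43 and 0.77 in the 2 regions, beside -0.03 and -0.01 for all genes. The untreated libraries held the neuron and oligodendrocyte RNA described above, and the part of that difference in these values was not tested.

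**Figure D3:**
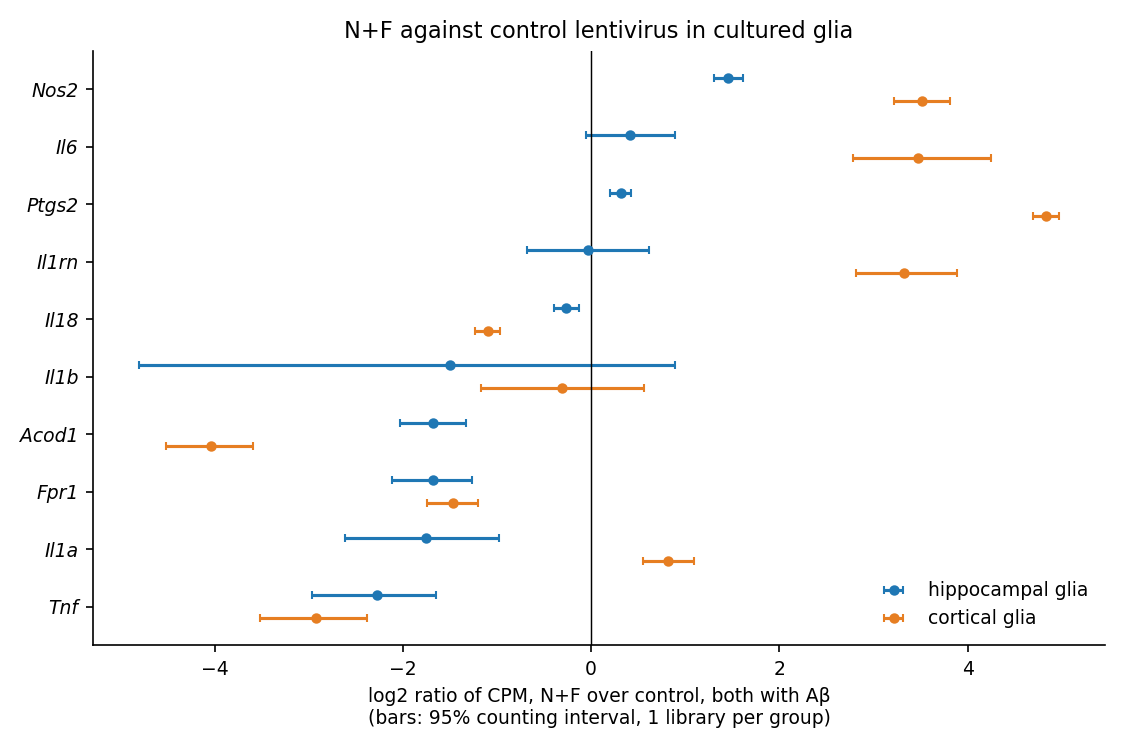
Log2 ratio of CPM in the N+F library over its amyloid beta control for each gene, in hippocampal (blue) and cortical glia (orange); bars are 95% counting intervals from 1 library per group and leave out biological spread. Tnf, Acod1 and Fpr1 lie left of 0 in both regions and Nos2 right of 0 in both, while Il1a lies on opposite sides.

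Markers of myeloid cells moved with some of these values. Microglia markers summed to 669, 220 and 194 CPM in untreated, amyloid beta control and N+F hippocampal glia and to 700, 307 and 418 CPM in cortical glia. The list's median gene was at 27.8, 4.38 and 1.54 CPM in hippocampal and at 31.2, 9.61 and 15.2 CPM in cortical glia. In the hippocampal sums Sall1 gave 30.1, 104 and 111 CPM, so the sum fell less than the median gene. Every one of the 16 microglia genes was detected in all 6 libraries, but P2ry12 and Cx3cr1, which define resting microglia, were at 1.06 and 2.81 CPM in the hippocampal control and at 46.1 and 65.5 CPM untreated. The 3 genes lower with N+F in hippocampal glia were lower by more than the microglia sum, whereas in cortical glia they were lower while that sum was higher. The cortical microglia genes were split, 11 higher with N+F and 5 lower: Itgam was at 50.3 against 10.5 CPM and Cd68 at 52.6 against 18.8, whereas Sall1 was at 41.6 against 120.4 and Cx3cr1 at 0.537 against 2.08 CPM. Sall1 was at 30.3 CPM in untreated cortical glia, so it was higher with amyloid beta where the list's median gene was lower. Its level is therefore not read as a level of microglia. In hippocampal glia 13 were lower and 3 higher. The monocyte and neutrophil list summed to 42.6, 61.6 and 127 CPM in hippocampal and 42.7, 37.0 and 325 CPM in cortical glia, of which Vcan, made also by fibroblasts and astrocyte precursors, gave 125 and 299 CPM with N+F. Plac8, on the same list, was at 0 in the cortical control and 21.6 CPM in the cortical N+F library. The neutrophil marker Ly6g was at 0 in all 6 libraries. S100a9, Ccr2, Retnlg and Cxcr2 were at 0 in the amyloid beta libraries, but for 0.0662 CPM of Ccr2 in the hippocampal N+F library. In the untreated hippocampal and cortical libraries S100a9 was at 0.577 and 0.575 CPM and Ccr2 at 0.459 and 0.824 CPM. Retnlg was at 0.118 and 0.230 CPM there, and Cxcr2 at 0 and 0.0958 CPM. Among the 16 monocyte and neutrophil genes, Ms4a6c alone peaked in both amyloid beta controls, as Tnf, Acod1 and Fpr1 did. It was at 0.769, 1.87 and 0.711 CPM in hippocampal and at 0.613, 4.59 and 2.77 CPM in cortical glia. Csf3r was at 9.07 and 8.32 CPM in the untreated libraries and at 0.0535 and 1.28 CPM in the amyloid beta controls. The mural and fibroblast sum of 16460 CPM in the cortical N+F library, the library in which Ptgs2, Il6 and Il1rn were high, stood beside 4318 CPM in the hippocampal N+F library, in which they were not. The part of these markers in the values of the 10 genes was not tested.

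**Figure D4:**
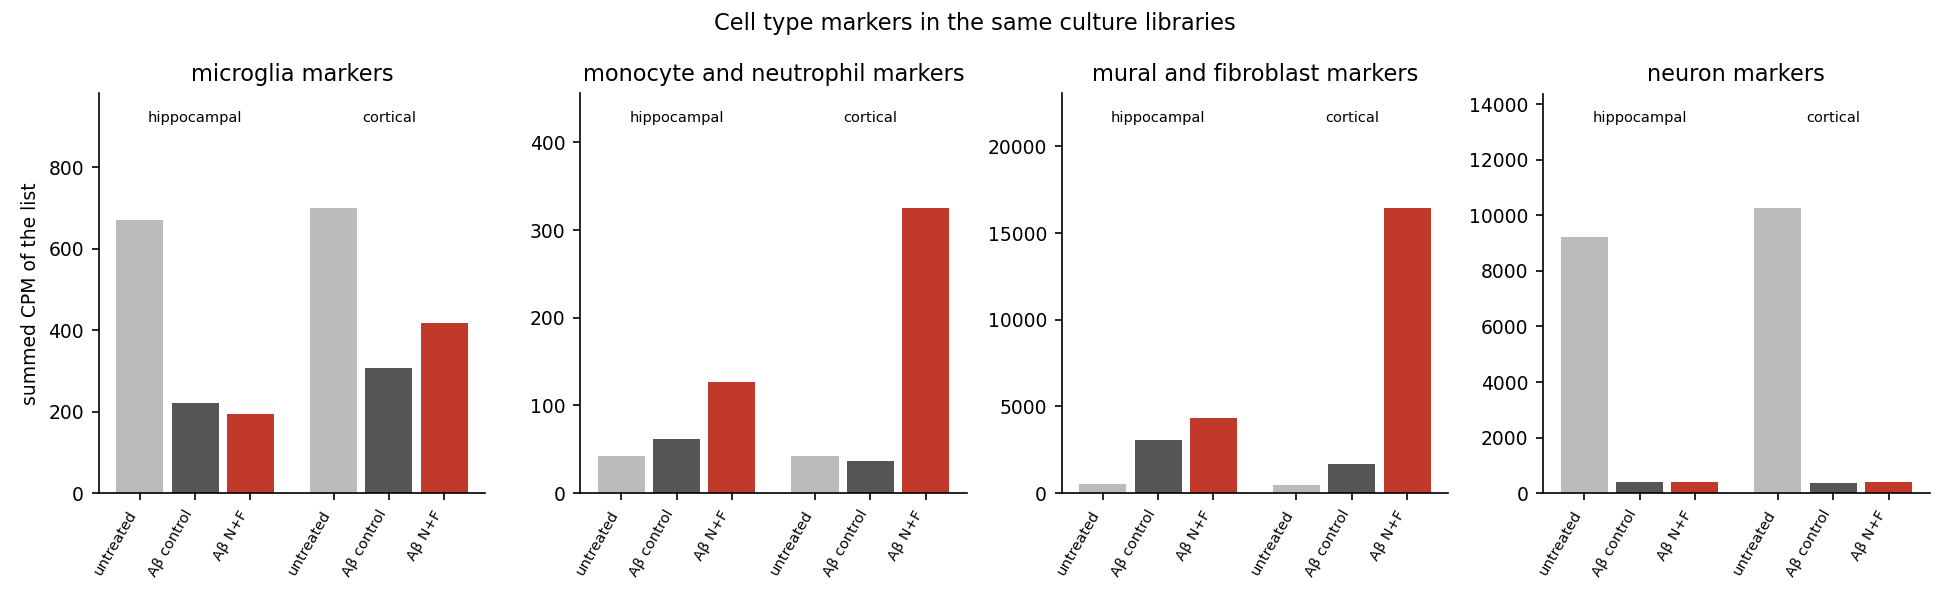
Summed CPM of 4 cell type marker lists in the 6 culture libraries (1 library per bar, linear axes from 0). Neuron markers are high in the untreated libraries alone, and mural and fibroblast markers reach 16460 CPM in the cortical N+F library.

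The pathway partners of these genes, from 9 lists, gave few calls in tissue. Of 123 tested genes in the lists 1 passed the edgeR test, beside 0.110% of all genes, and it was 1 of the 6 tested in the list of other interleukins and colony-stimulating factors. That gene was Il16, a chemoattractant for CD4+ cells, which fell from 10.1 ± 2.76 (SD, n = 3) to 2.85 ± 0.240 TMM-scaled CPM (SD, n = 4) by edgeR (log2 fold change -1.82 ± 0.24, SE; adjusted p = 0.0267). Leaving out any 1 N+F library left 0 genes past the test in the whole table, Il16 included. List medians beside -0.00 for all genes were -0.16 for the IL-1 family and its receptors (4 of 12 tested genes above 0), -0.19 for the inflammasome (4 of 12), -0.18 for TNF receptors and signalling (2 of 15), -0.16 for IL-6 receptors and signalling (5 of 16) and -0.27 for NF-kB feedback genes (6 of 18). The prostaglandin, nitric oxide and itaconate lists had medians of 0.04, 0.13 and -0.04. In CPM of the library total, marker sums of 4 cell types lay lower in all 4 N+F libraries than in the 3 controls. They were the microglia list given above and the astrocyte list, at 2534 to 3010 against 3062 to 3884 CPM. The endothelial list was at 77.5 to 96.6 against 101.6 to 129.4 CPM and the mural and fibroblast list at 103.6 to 140.6 against 152.9 to 505.9 CPM. With the TMM scaling used for the tested genes, the groups overlap for all of these but the endothelial list. The part of these cell types in the list medians was not tested.

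At an unadjusted edgeR p below 0.05 there were 19 of the 123 list genes, 6 higher and 13 lower with N+F, or 15.4% beside 8.46% of all genes. All but Il16 missed the adjusted threshold, and 5 examples from different pathways follow. The IL-1 receptor accessory protein Il1rap was at 11.3 ± 1.01 TMM-scaled CPM (SD, n = 3) in controls and 7.71 ± 1.78 (SD, n = 4) with N+F (edgeR adjusted p = 0.466). Gsdmd, the pore protein that releases Il1b, was at 4.48 ± 1.06 and 1.93 ± 0.622 (edgeR adjusted p = 0.273). For the TNF receptor Tnfrsf1a the values were 11.7 ± 2.01 and 8.19 ± 1.92 (edgeR adjusted p = 0.549). Socs3, the feedback inhibitor of IL-6 signalling, was at 4.00 ± 0.724 and 1.94 ± 1.16 (edgeR adjusted p = 0.535). Gucy1a1, a subunit of the nitric oxide receptor, had higher values with N+F, 60.5 ± 4.18 against 42.6 ± 8.20 (edgeR adjusted p = 0.303). None of these differences passed the test.

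In culture the same lists differed between the comparisons. With amyloid beta against untreated glia, 15 of 19 NF-kB feedback and acute target genes were higher in both regions, against 16.6% of all genes, for example the NF-kB inhibitor Nfkbia at 19.7 CPM untreated and 243 with amyloid beta in hippocampal and at 18.3 and 171 CPM in cortical glia. The TNF list had 10 of 17 genes higher, the IL-6 list 9 of 16, the itaconate and formyl peptide list 8 of 13, the inflammasome list 5 of 13, the nitric oxide list 4 of 14, the IL-1 family list 3 of 11, the prostaglandin list 3 of 16 and the other interleukins 2 of 6. Lower in both regions were 5 of 16 prostaglandin genes, 5 of 14 nitric oxide genes, 2 of 6 other interleukins and 1 gene each of the IL-1 family and inflammasome lists, against 21.5%. Among them Ptgds, the prostaglandin D synthase of oligodendrocytes and meninges, was at 945 CPM untreated and 13.9 CPM with amyloid beta in hippocampal glia, and the neuronal nitric oxide synthase Nos1 was at 121 and 0.0937 CPM. Oligodendrocyte and neuron markers were high in the untreated libraries, and their part in the values of these 2 genes was not tested.

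With N+F against the amyloid beta control, 0 genes of the 9 lists were at least 2-fold lower in both regions, against 0.119% of all genes. Higher in both, against 2.07%, was 1 gene in each of 7 lists: Il33, Ripk3, Lif, Tgfb1, Alox5, Gch1 and Cebpb. Il33, an alarm cytokine of the IL-1 family, was at 7.56 CPM in the hippocampal control and 22.1 with N+F, and at 5.14 and 61.3 in cortical glia. Gch1, which makes the cofactor that Nos2 needs, was at 9.94 and 24.3 CPM in hippocampal and 6.75 and 15.0 CPM in cortical glia. Cebpb, a transcription factor that binds C/EBP sites, was at 5.33 and 45.8, and at 31.3 and 91.7 CPM. The prostaglandin partners of Ptgs2 were split by region: Ptges, the inducible prostaglandin E synthase, was at 77.7 and 52.3 CPM in hippocampal glia but 34.6 and 171 CPM in cortical glia, and the phospholipase Pla2g4a was at 62.6 and 57.9 against 31.4 and 139 CPM.

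**Figure D5:**
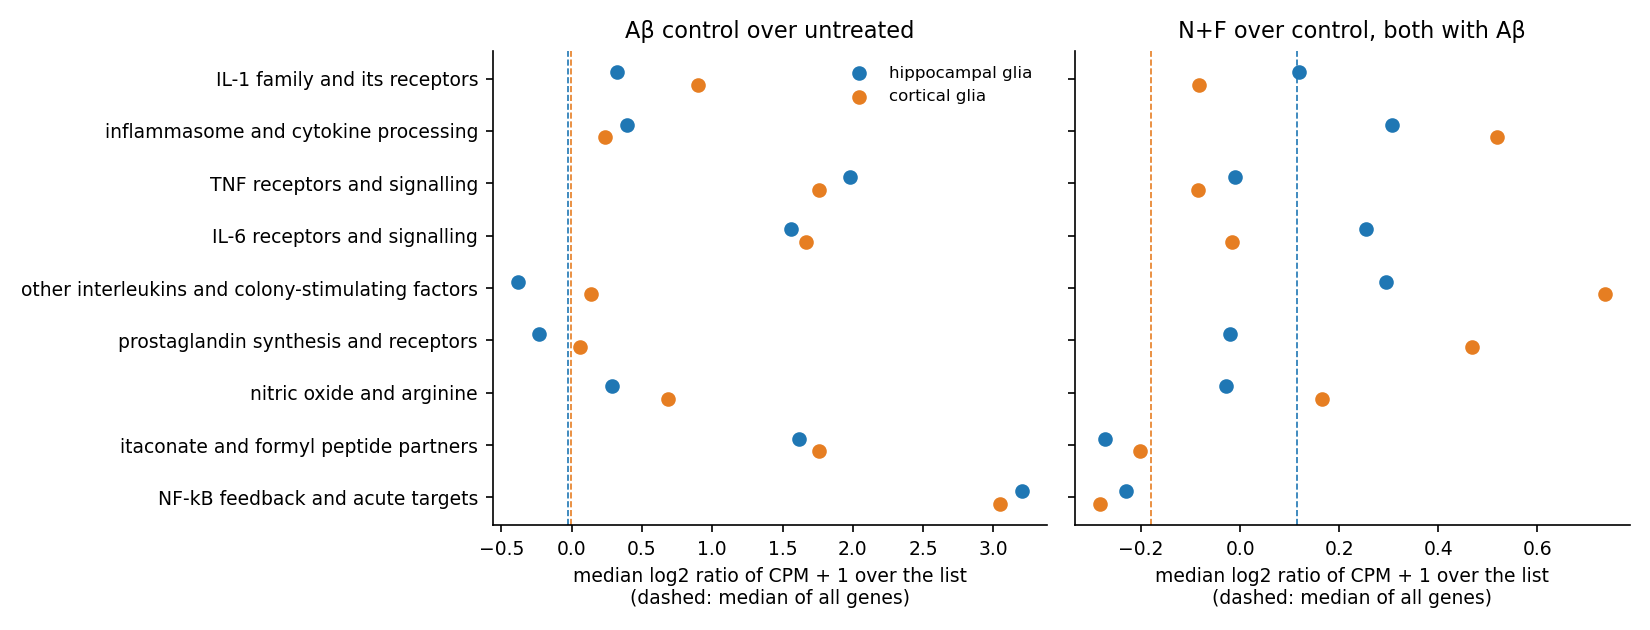
Median log2 ratio of CPM + 1 over the genes of each of 9 lists in hippocampal (blue) and cortical glia (orange), for amyloid beta control over untreated (left) and N+F over amyloid beta control (right); dashed lines are the median of all genes, and the panels have different scales. On the left the NF-kB list is farthest to the right, with medians of 3.20 and 3.05, and on the right all medians lie between -0.28 and 0.74.

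Genes with the most similar course over the 6 culture libraries were sought for the 9 members that reached 1 CPM, as the root mean square difference of centred log2(CPM + 1) over 15478 genes. Tnf was closest to the amino acid transporters Slc38a3 (0.13) and Slc7a5 (0.15), Acod1 to Fam84a (0.23), the pyruvate carboxylase Pcx (0.31) and the dicarboxylate transporter Slc13a3 (0.34), and Fpr1 to Metrn (0.19), Srebf1 (0.20) and Mlc1 (0.26). Il1a was closest to Ncf4 (0.14), Bcl2a1b (0.16) and Hk3 (0.16), Il1rn to 2410006H16Rik (0.11), and Il6 to Mipol1 (0.08). The nearest to Nos2 were Elf4 (0.25) and Ripk3 (0.26), and to Ptgs2 Tinagl1 (0.17) and Osr1 (0.27). For Il18, which varied least, 632 genes lay within 0.25, so its nearest ones, led by Ogfod2 (0.09), single out little. The pseudocount of 1 CPM shrinks the folds of genes at a few CPM, so genes alike on this scale can differ in fold. Slc38a3 was at 95.5 CPM in untreated hippocampal glia and 335 CPM in the amyloid beta control, where Tnf was at 0.0888 and 1.93 CPM. Likeness over 6 libraries that share their controls is a description of these libraries.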

How the data were processed

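RNA was measured in 7 hippocampus libraries and 6 glia libraries. The deposited values were whole-number counts per gene symbol. The authors used TopHat, HISAT2 and edgeR, per the submitters' processing notes, which name the human build hg19 although the symbols are mouse, so the build behind the counts is treated as not established. Whether counting used strand is not stated in those sources. Lines of one symbol were summed (in culture Il1rn and Nos2 have 3 lines, Tnf and Il6 have 2), and 0 columns were unused. If reads were counted in several lines, sums overstate levels.

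Tissue was tested with edgeR 4.0.16 in R 4.3.3 (quasi-likelihood test, filterByExpr, TMM factors 0.895 to 1.11, biological coefficient of variation 0.206). The 5 members under the filter were compared by two-sided exact permutation tests on CPM of the library total. No label ties the replicates to separate animals; the p-values therefore reflect sample-to-sample spread that could be technical. No replicate pair agreed within sampling noise (chi-square per gene at least 15.0). Culture ratios used a pseudocount of 1 CPM, and folds without a pseudocount carry exact 95% counting intervals. The fits were tested on simulated data with a fixed spread and the same change in both regions. The changed genes there had more counts than most members have in tissue. That test therefore says little of members with few counts. Alternatives were DESeq2 1.42.0, limma 3.58.1, other scalings, filters, pseudocounts and folds, and leaving out libraries.

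Named genes were all 10 members and, per list, up to 4 of the highest level and up to 3 of the largest change among those that reached 1 CPM, of which the text names examples. The members and lists were chosen with earlier results of these data known. Sequences and gene models are from GRCm38.p6 (RefSeq and GENCODE).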

Additional observations from a re-analysis of the deposited data

Results flagged for a closer look

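Tnf in the N+F tissue libraries stood out because the whole range came from 1 library: N+F library 1 had 2 counts and the other 3 had 0, so the gap to its nearest neighbour divided by the range was 1. Il1a had opposite directions in the 2 regions of cultured glia, with log2(CPM + 1) ratios of -0.61 in hippocampal and 0.64 in cortical glia for N+F against its control, a difference of 1.25. Il1rn also had opposite signs, at -0.01 and 2.06, a difference of 2.08, with the hippocampal value close to 0. Each region had 1 library per group, so these differences between regions were not tested.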

How the results depend on the processing

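No alternative brought a member past the adjusted threshold in tissue, DESeq2 giving an adjusted p for Il18, Il1rn and Ptgs2 alone. The number of all genes called was 17, and it was 29 without the filter, 131 with DESeq2, and 0 to 29 with one library left out: 0 without any one of the 4 N+F libraries, 29 without control library 1, 3 without control library 2 and 1 without control library 3. With the replicate number as a block on replicates 1 to 3 the count was 0, and it was also 0 for the same 6 libraries without the block, an alternative chosen after seeing the data (1541 and 1544 genes at an unadjusted edgeR p below 0.05). Deviations of same-numbered libraries correlated at -0.00, -0.08 and 0.13. The labels do not say what a shared number means, and so few correlations cannot exclude a pairing.

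With one library left out, the log2 fold change ran from -0.37 to 0.48 for Il1b, from -0.066 to 0.14 for Il18 and from -0.33 to 0.046 for Ptgs2, each changing sign, and the Tnf difference ran from -0.0796 to 0.0490 CPM. Il1rn (0.093 to 0.39) and Fpr1 (0.35 to 1.06) kept their sign.

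In culture, a pseudocount of 5 CPM left 0 members lower and 0 higher in both regions with N+F, and 0 higher with amyloid beta. An additive edgeR fit over both regions, with 2 residual degrees of freedom, called 0 members lower and 0 higher with N+F (1156 of 16762 genes at an unadjusted p below 0.05, 0 adjusted). A 1.5-fold threshold made 1 member, Ptgs2, lower in both with amyloid beta. The same threshold, and a pseudocount of 0.1 CPM, each added Nos2 to the members higher with amyloid beta, 4 in place of 3. Genes at a few CPM, which include most members, are those most bound to the pseudocount. Use of hippocampal glia alone was chosen after seeing the data.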
